A study of Homo sapiens with 6 samples.

Results

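The genes described here encode the contractile actin and myosin system and the proteins that bind its filaments: MYH9, MYH10, MYL9, ACTA2, ACTN1, TPM1, TPM2, CALD1, TAGLN and TAGLN2. All 10 genes were represented on the array, as 10 of its 19432 named genes and by 22 of its 29377 probes. They were chosen by name, with their differences between the groups on these arrays already known, so those differences are given as a description without p-values. The arrays measured total RNA of HuCCT1, an established cell line of human cholangiocarcinoma (a cancer of the bile ducts), on single-colour Illumina bead arrays. The 3 arrays labelled WTAP came from a stable derivative described as overexpressing WTAP, a regulatory subunit of the writer of N6-methyladenosine in mRNA. They are written below as arrays labelled WTAP. The 3 mock arrays came from cells with the empty vector. Both groups share the parental line and the RPMI1640 medium with serum, HEPES and antibiotics. The labels do not give the promoter of the insert, nor whether a derivative was 1 clone or a pool. Arrays are numbered 4, 5 and 6 in each group, and the labels do not say that they came from separate cultures. The SDs and p-values therefore measure only the spread between these arrays, which may be technical. Precision is limited by having 3 arrays a group.

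In nonmuscle cells, contraction is driven by bipolar filaments of myosin II, built from heavy chains (MYH9, MYH10) and light chains (MYL9), which pull on actin filaments. Alpha-actinin (ACTN1) crosslinks these filaments, while tropomyosins (TPM1, TPM2) and caldesmon (CALD1) lie along them and control the access of myosin. Transgelins (TAGLN, TAGLN2) belong to the calponin family of actin binders. ACTA2, TAGLN and MYL9 are known for their abundance in smooth muscle and myofibroblasts, and many genes of the system are targets of serum response factor (SRF) and its myocardin-related cofactors.

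The bead signal of the brightest of the WTAP probes was 1123, 1050 and 1018 on arrays 4, 5 and 6 labelled WTAP and 1019, 1124 and 1060 on mock arrays 4, 5 and 6. Its log2 difference was 0.06 (SE 0.11, limma adjusted p = 0.721 after Benjamini-Hochberg), and a second detected probe gave -0.01 (SE 0.15, limma adjusted p = 0.970). The other 3 of 5 WTAP probes were detected on at most 2 arrays. The positions of the probes relative to the cloned insert are not given, and a probe outside it would read only the cells' own WTAP transcript. The arrays thus showed no increase that could check the labels, and every direction below rests on the labels alone. The median bead signal of an array was 191 to 203, and 15071 to 16307 of 29285 probes were detected (detection p under 0.05). Of 15830 probes detected on at least 3 arrays, 3020 (19.1%) differed between the groups at an adjusted p under 0.05 in limma. All 7 measured markers of biliary epithelium, among them KRT7, KRT19 and EPCAM, were detected on every array. Of 9 smooth muscle markers 1 was detected on at least 3 arrays, SMTN, and MYH11, DES, CNN1, LMOD1, ACTG2 and MYOCD were detected on none. The summed normalized signal of the smooth muscle markers was 558 to 770 on arrays labelled WTAP and 774 to 808 on mock arrays. SMTN was the brightest of them, with a log2 difference of -0.62 that did not pass (limma adjusted p = 0.0545). RGS5, detected on 2 arrays labelled WTAP and 0 mock arrays and so not tested, lay higher without overlap (log2 difference 0.63). Of 9 fibroblast and pericyte markers 3 were detected on at least 3 arrays, and COL3A1, DCN, PDGFRA, PDGFRB, THY1 and POSTN on none. Their summed signal was 560 to 835 on arrays labelled WTAP and 505 to 553 on mock arrays. COL1A1 was higher on arrays labelled WTAP (log2 difference 0.74, limma adjusted p = 0.0112). LUM and COL1A2 had log2 differences of 1.03 and 0.12 and did not pass (limma adjusted p = 0.0659 and 0.759). Of 6 blood cell markers 4 were detected on at least 3 arrays, and PTPRC and CD3E on none. The 6 summed to 2149 to 2306 on arrays labelled WTAP and 2000 to 2248 on mock arrays, and CD68 was the brightest. HBB was higher on arrays labelled WTAP (log2 difference 1.51, limma adjusted p = 0.000266). CD14, CD68 and CD79A had log2 differences of -0.22, -0.08 and -0.20 and did not pass (limma adjusted p = 0.426, 0.654 and 0.590). The part of such cells in the values below was not tested, and in bulk RNA fewer cells with a transcript and less transcript per cell cannot be told apart.

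Of the 22 probes of the 10 genes, 18 were detected on at least 3 arrays and entered the test across all probes, and 4 did not: both MYL9 probes, 1 of TPM2 and 1 of TAGLN. The contractile genes did not differ in 1 direction. TAGLN and MYH10 were 5.42-fold and 6.33-fold higher on arrays labelled WTAP, TPM1 was moderately higher, and TPM2 was 1.88-fold lower by its brightest probe. For MYH9, ACTN1, ACTA2, CALD1 and TAGLN2 the intervals of the brightest probes included no difference. In all, 8 of the 18 probes passed an adjusted p of 0.05, 6 higher and 2 lower, where 19.1% of all tested probes passed, 9.64% higher and 9.44% lower. The arrays of the groups did not overlap for 9 of the 18 probes, against 38.2% of all tested probes. As the genes were chosen with these differences known, nothing is read from either count, nor from the passing of single probes. Without WTAP array 4 or without WTAP array 5, 5 of 17 probes passed. The dimmer tested TAGLN probe was then detected on fewer than 3 arrays and was not tested.

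**Figure D1:**
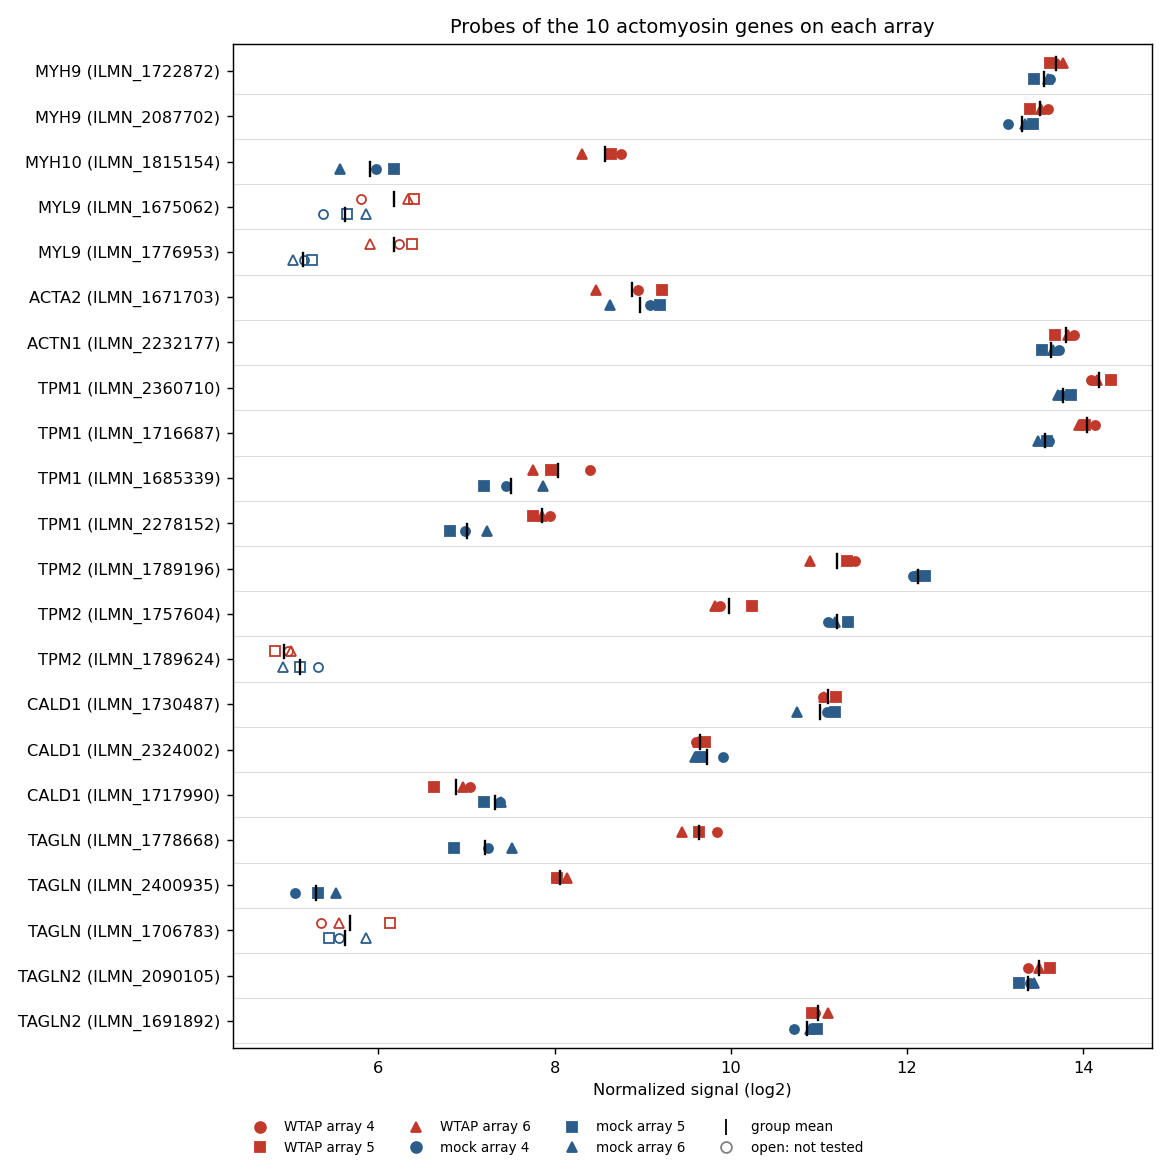
Normalized signal on the log2 scale (horizontal axis) of each of the 22 probes on each array, with WTAP arrays in red above mock arrays in blue; black ticks are group means and open symbols are probes not tested. The WTAP and mock symbols lie far apart for MYH10 and for 2 TAGLN probes, with WTAP to the right, and apart for 2 TPM2 probes, with WTAP to the left. The probes of MYH9, ACTA2, ACTN1 and TAGLN2 overlap between the groups.

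Among the myosin heavy chains, MYH10, nonmuscle myosin heavy chain IIB, differed most. Its single probe read 8.75, 8.63 and 8.31 on arrays 4, 5 and 6 labelled WTAP and 5.97, 6.18 and 5.57 on mock arrays 4, 5 and 6 (normalized log2 signal). All arrays labelled WTAP lay above all mock arrays, and array 6 was the lowest of its group in both. The means were 8.57 ± 0.23 on arrays labelled WTAP and 5.91 ± 0.31 on mock arrays (SD, n = 3 each), a log2 difference of 2.66 with a standard error of 0.18 and a 95% interval of 2.24 to 3.08. Before normalization the bead signal was 505 ± 72.1 on arrays labelled WTAP and 185 ± 16.8 on mock arrays (SD, n = 3 each). MYH10 was detected on 3 WTAP arrays and 2 mock arrays, so the mock level is close to background. The size of the difference rests on how background is removed: it was 1.46 on uncorrected signals and 1.42 in the authors' processed table.

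MYH9, nonmuscle myosin heavy chain IIA, had 2 probes, and both gave small differences. The brighter one read 13.68, 13.63 and 13.77 on arrays 4, 5 and 6 labelled WTAP and 13.63, 13.44 and 13.60 on mock arrays 4, 5 and 6. The groups overlapped, with a log2 difference of 0.14 and a 95% interval of -0.12 to 0.40. The second probe had a log2 difference of 0.20 (95% interval -0.08 to 0.48), and the groups overlapped again. Both intervals lay far below that of MYH10.

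MYL9, the regulatory light chain best known from smooth muscle, was near the limit of detection. Each of its 2 probes was detected on 2 of 3 WTAP arrays and on 0 mock arrays. The first probe read 5.80, 6.40 and 6.34 on arrays 4, 5 and 6 labelled WTAP and 5.38, 5.64 and 5.86 on mock arrays 4, 5 and 6. The second read 6.24, 6.38 and 5.90 on arrays 4, 5 and 6 labelled WTAP and 5.15, 5.24 and 5.02 on mock arrays 4, 5 and 6. The groups overlapped on the first probe and did not on the second. Against a floor for the undetected mock arrays, the mean of the arrays labelled WTAP was 1.22-fold higher by either probe. That mean includes an array labelled WTAP that did not detect the probe, so 1.22 is not a lower bound. The difference was not tested.

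ACTA2, smooth muscle alpha-actin, had readings of much the same range in both groups. It read 8.95, 9.21 and 8.47 on arrays 4, 5 and 6 labelled WTAP and 9.08, 9.20 and 8.63 on mock arrays 4, 5 and 6. Array 6 was again the lowest in both groups, and the groups overlapped almost entirely. The log2 difference was -0.09 (95% interval -0.59 to 0.41), and over the alternative settings it ranged from -0.26 to 0.11. ACTN1, alpha-actinin 1, read 13.89, 13.68 and 13.83 on arrays 4, 5 and 6 labelled WTAP and 13.72, 13.53 and 13.65 on mock arrays 4, 5 and 6, with overlapping groups. Its log2 difference was 0.16 (95% interval -0.10 to 0.43).

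The tropomyosin genes differed in opposite directions. TPM2 was lower on arrays labelled WTAP by both of its detected probes. The brighter read 11.41, 11.32 and 10.90 on arrays 4, 5 and 6 labelled WTAP and 12.06, 12.20 and 12.10 on mock arrays 4, 5 and 6. Every WTAP array lay below every mock array, and WTAP array 6 was the lowest of all. The means were 11.21 ± 0.27 on arrays labelled WTAP and 12.12 ± 0.073 on mock arrays (SD, n = 3 each), a log2 difference of -0.91 with a standard error of 0.15. The second probe read 9.88, 10.24 and 9.82 on arrays 4, 5 and 6 labelled WTAP and 11.10, 11.33 and 11.19 on mock arrays 4, 5 and 6, a log2 difference of -1.23 with a standard error of 0.14. Again no WTAP array reached a mock array. Over the 14 refitted alternatives the log2 difference ranged from -1.02 to -0.75 for the brighter probe and from -1.36 to -1.11 for the second. The remaining TPM2 probe was detected on 0 arrays.

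TPM1 was higher on arrays labelled WTAP by all 4 of its probes, and by less than TPM2 was lower. The brightest read 14.08, 14.31 and 14.16 on arrays 4, 5 and 6 labelled WTAP and 13.74, 13.86 and 13.71 on mock arrays 4, 5 and 6. A second bright probe read 14.13, 14.02 and 13.96 on arrays 4, 5 and 6 labelled WTAP and 13.62, 13.59 and 13.49 on mock arrays 4, 5 and 6. The groups did not overlap on either probe, and the log2 differences were 0.41 and 0.47 with standard errors of 0.11 each. A dimmer probe read 7.94, 7.75 and 7.86 on arrays 4, 5 and 6 labelled WTAP and 6.98, 6.81 and 7.23 on mock arrays 4, 5 and 6. It had the largest TPM1 difference, 0.84 with a standard error of 0.14, which became 0.48 on uncorrected signals and 0.47 in the authors' processed table. The fourth probe had a difference of 0.53 (95% interval 0.04 to 1.03) and overlapping groups. The brightest probe no longer passed when any 1 of the 6 arrays was left out, with median scaling or with no filter on dim probes. The second bright probe no longer passed without WTAP array 4 or 5 or without mock array 5 or 6.

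CALD1, caldesmon, had 3 detected probes with differences on both sides of 0. The brightest read 11.05, 11.20 and 11.06 on arrays 4, 5 and 6 labelled WTAP and 11.09, 11.18 and 10.76 on mock arrays 4, 5 and 6, with a log2 difference of 0.09 (95% interval -0.23 to 0.41). The second had a difference of -0.08 (95% interval -0.36 to 0.20). The groups overlapped on both of these probes. The dimmest read 7.04, 6.63 and 6.96 on arrays 4, 5 and 6 labelled WTAP and 7.38, 7.20 and 7.39 on mock arrays 4, 5 and 6. Here no WTAP array reached a mock array, and the log2 difference was -0.44 (95% interval -0.76 to -0.12). This probe did not pass the threshold over all probes. It passed when only probes detected on all 6 arrays were kept, and with the array number as a replicate block. With the block 9 of the 18 probes passed.

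In the calponin family, TAGLN, transgelin, was higher on arrays labelled WTAP by both of its detected probes. The brighter read 9.85, 9.64 and 9.45 on arrays 4, 5 and 6 labelled WTAP and 7.24, 6.86 and 7.51 on mock arrays 4, 5 and 6. All arrays labelled WTAP were above all mock arrays. The means were 9.64 ± 0.20 on arrays labelled WTAP and 7.20 ± 0.33 on mock arrays (SD, n = 3 each), a log2 difference of 2.44 with a standard error of 0.18 and a 95% interval of 2.01 to 2.86. The bead signal before normalization was 913 ± 128 on arrays labelled WTAP and 280 ± 31.5 on mock arrays (SD, n = 3 each). The second probe read 8.01, 8.02 and 8.13 on arrays 4, 5 and 6 labelled WTAP and 5.05, 5.32 and 5.52 on mock arrays 4, 5 and 6, and the mock readings were not well above background on any array. On background-corrected signals TAGLN was by this probe at least 4.49-fold higher on arrays labelled WTAP, a bound that does not hold on uncorrected signals. The probe entered the test only through its detection on the arrays labelled WTAP. The remaining probe was detected on 1 WTAP array and on 0 mock arrays, with overlapping groups. On uncorrected signals the log2 difference of the brighter probe was 1.74, and that of the second, fitted at 2.76 in the test, was 1.41.

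TAGLN2, the paralog found widely outside muscle, differed little by either probe. The brighter read 13.37, 13.62 and 13.49 on arrays 4, 5 and 6 labelled WTAP and 13.39, 13.27 and 13.44 on mock arrays 4, 5 and 6. The groups overlapped, and the log2 difference was 0.13 (95% interval -0.14 to 0.40). The second probe gave 0.13 as well (95% interval -0.15 to 0.41).

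**Figure D2:**
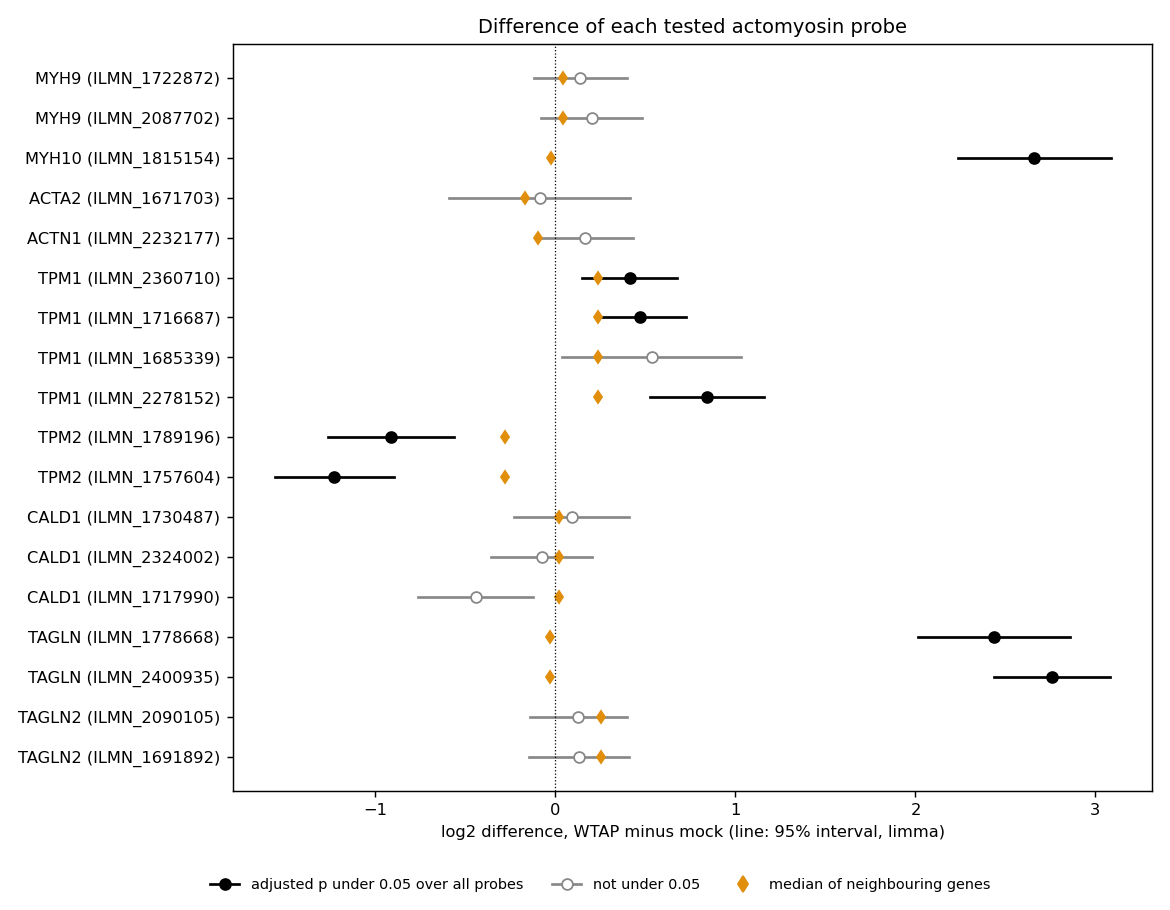
Log2 difference, WTAP minus mock, of each of the 18 tested probes (points) with its 95% interval from limma (lines); filled black points passed an adjusted p of 0.05 over all 15830 probes, and orange diamonds are the median difference of the neighbouring genes on the chromosome. MYH10 and both TAGLN probes lie beyond 2, both TPM2 probes near -1, and all 4 TPM1 probes between 0.4 and 0.9.

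To place each difference on its chromosome, it was set beside the median of the 50 nearest tested genes, 25 on either side. This median was 0.23 around TPM1 on chromosome 15, -0.28 around TPM2 on chromosome 9, 0.25 around TAGLN2 on chromosome 1 and -0.17 around ACTA2 on chromosome 10. It was -0.03 around TAGLN on chromosome 11, -0.03 around MYH10 on chromosome 17, 0.06 around MYL9 on chromosome 20, 0.04 around MYH9 on chromosome 22, 0.02 around CALD1 on chromosome 7 and -0.10 around ACTN1 on chromosome 14. After subtraction TAGLN stood at 2.47 and MYH10 at 2.69, the bright TPM1 probes at 0.18 and 0.24, and the dimmer ones at 0.30 and 0.61. The TPM2 probes stood at -0.63 and -0.95, the TAGLN2 probes at -0.13 and -0.12, and ACTA2 at 0.08. The neighbourhoods of TPM1 and TPM2 thus differed in the direction of the gene itself, and the signs of TAGLN2 and ACTA2 turned. The part of the neighbourhood in these differences was not tested.

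Promoter sequences are shown for MYH10, TPM1 and TPM2, each with a probe that passed the threshold. The ACTN1 window with a strict CArG box is shown as well. The CArG box is the element bound by SRF, and strict means CC, then 6 bases of A or T, then GG. RefSeq windows (GRCh38.p14) from 250 bases before to 50 bases after a transcription start were matched for 8 of the 10 genes, all but TAGLN and MYL9, in 18 windows. Capitals mark a strict CArG box or an MCAT element (CATTCC or its reverse complement GGAATG), the element bound by TEAD factors, and a window without capitals holds neither. The MYH10 window lies at chr17:8630676-8630975 (minus strand), that of ACTN1 at chr14:68977517-68977816 (minus strand), that of TPM1 at chr15:63048239-63048538 (plus strand) and that of TPM2 at chr9:35689876-35690175 (minus strand).
MYH10: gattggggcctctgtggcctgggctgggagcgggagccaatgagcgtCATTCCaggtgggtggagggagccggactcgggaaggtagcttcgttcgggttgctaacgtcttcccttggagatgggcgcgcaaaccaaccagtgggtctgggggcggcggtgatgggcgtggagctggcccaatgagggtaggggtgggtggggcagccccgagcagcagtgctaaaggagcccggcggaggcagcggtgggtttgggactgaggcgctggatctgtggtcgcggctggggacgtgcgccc
ACTN1: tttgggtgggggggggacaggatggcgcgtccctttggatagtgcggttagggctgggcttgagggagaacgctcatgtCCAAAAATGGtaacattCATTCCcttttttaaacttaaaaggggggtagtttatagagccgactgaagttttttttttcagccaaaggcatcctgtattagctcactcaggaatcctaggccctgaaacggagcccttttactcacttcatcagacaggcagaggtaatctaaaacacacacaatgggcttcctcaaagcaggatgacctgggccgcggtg
TPM1: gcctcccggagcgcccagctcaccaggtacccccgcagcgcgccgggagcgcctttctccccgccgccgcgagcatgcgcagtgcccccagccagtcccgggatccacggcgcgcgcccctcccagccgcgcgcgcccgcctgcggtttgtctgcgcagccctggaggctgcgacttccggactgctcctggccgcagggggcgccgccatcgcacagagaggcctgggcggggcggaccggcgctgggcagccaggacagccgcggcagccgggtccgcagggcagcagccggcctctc
TPM2: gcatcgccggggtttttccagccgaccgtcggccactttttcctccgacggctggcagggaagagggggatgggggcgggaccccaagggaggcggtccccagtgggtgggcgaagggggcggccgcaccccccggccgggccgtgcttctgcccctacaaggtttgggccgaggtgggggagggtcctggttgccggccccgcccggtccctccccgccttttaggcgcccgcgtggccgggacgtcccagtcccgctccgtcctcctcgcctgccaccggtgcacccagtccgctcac

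A strict CArG box, CCAAAAATGG, was present in 1 of the 18 windows, an alternative start of ACTN1 at bases -171 to -162 before the start, whereas 1.29% of the 35116 windows of the RefSeq table held one. MCAT elements were present in 6 of the 18 windows and in 14.0% of all windows. These were the windows of MYH9 and MYH10, the ACTN1 window shown, 1 of ACTA2 and 2 of CALD1. With 1 mismatch allowed, a search added after seeing the data, a CArG-like box was present in 4 of the 18 windows and in 18.9% of all windows. The 4 were 1 window of ACTA2, with ccctatatgg and ccttgtttgg at bases -121 and -71, the ACTN1 window shown and 2 of CALD1. The windows of MYH10, TPM1 and TPM2 held none on either strand, strict or with 1 mismatch. The strict box does not overlap the MCAT element in the ACTN1 window, and its strand does not matter, since it reads as the same pattern from both sides. Windows of 1 gene can overlap, as do both TPM2 windows.

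Other genes of the contractile system were taken from 6 lists by known role, each gene through its brightest detected probe. Of 176 genes 143 were tested, and 30 passed (limma, Benjamini-Hochberg adjusted p under 0.05 over all 15830 probes), 18 higher and 12 lower on arrays labelled WTAP. That is 21.0%, beside 19.3% of all 11586 tested genes (9.82% higher, 9.5% lower), and the median log2 difference was 0.04 beside 0.003 over all tested genes. With median scaling of the arrays in place of quantile normalization the split was 15 higher and 17 lower. Without any 1 array the number called was 15 to 29: 18 without WTAP array 4, 17 without WTAP array 5, 17 without mock array 4, 15 without mock array 5, 21 without mock array 6 and 29 without WTAP array 6.

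**Figure D3:**
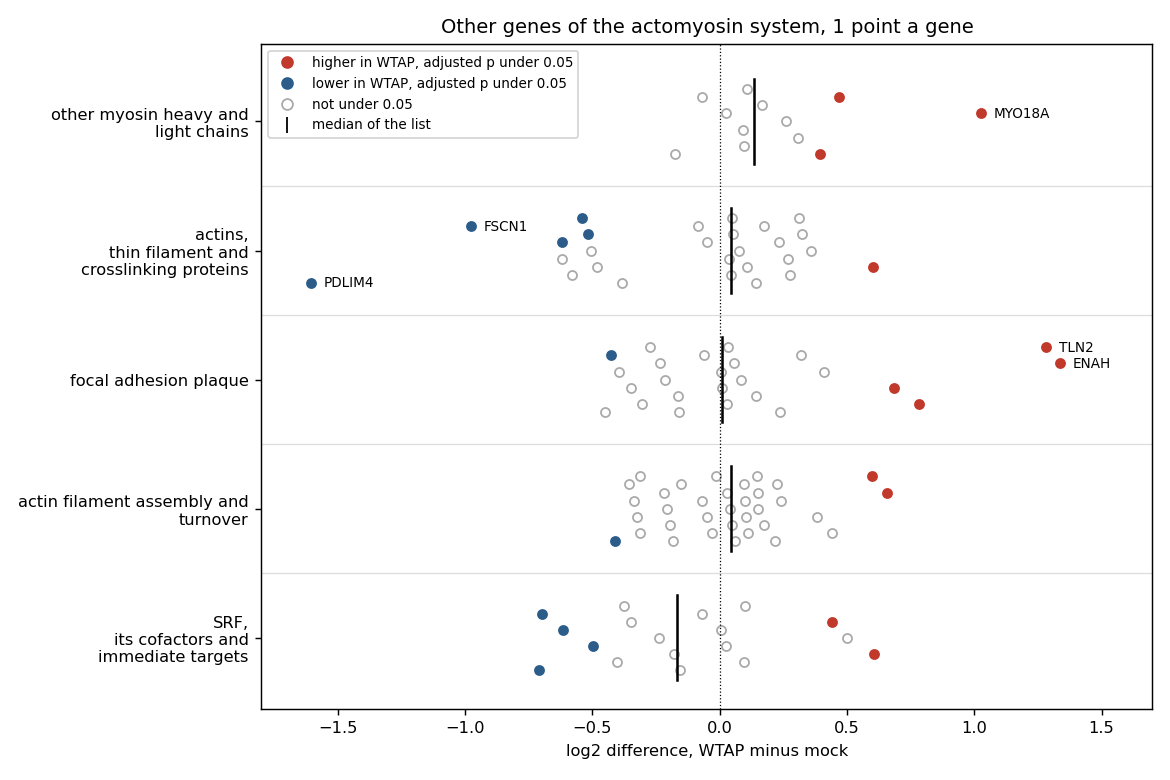
Log2 difference, WTAP minus mock (horizontal axis), of 116 tested genes in 5 of the lists, 1 point a gene; red and blue points passed an adjusted p of 0.05, open points did not, and black ticks are list medians. ENAH stands farthest to the right at 1.34, and PDLIM4 farthest to the left at -1.60.

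Among the other genes were kinases and phosphatase subunits that act on the myosin light chain, given here as single genes. DAPK1, a calmodulin-regulated kinase that can phosphorylate the myosin light chain, read 10.96, 11.03 and 9.96 on arrays 4, 5 and 6 labelled WTAP and 8.63, 8.43 and 8.06 on mock arrays 4, 5 and 6. It rose by 2.28 on the log2 scale with a standard error of 0.29 (limma adjusted p = 0.0019), and WTAP array 6 was the nearest to the mock arrays. PPP1R14C, an inhibitor of protein phosphatase 1, read 7.42, 7.56 and 7.45 on arrays 4, 5 and 6 labelled WTAP and 8.87, 9.18 and 9.30 on mock arrays 4, 5 and 6. It fell by 1.64 (limma adjusted p = 0.000461), with no overlap between the groups. PPP1CB, the catalytic subunit of myosin phosphatase, picked after seeing its values, rose by 0.67 (limma adjusted p = 0.008). The kinase CDC42BPA, likewise picked, rose by 0.49 (limma adjusted p = 0.0252), a call lost without WTAP array 4 or 5 or without any 1 mock array (0.00646 to 0.0863 over 14 alternatives). The median difference of its neighbouring genes was 0.35, which left 0.14 after subtraction. MYLK, the myosin light chain kinase, likewise picked, read 8.50, 8.80 and 8.26 on arrays 4, 5 and 6 labelled WTAP and 7.85, 8.01 and 6.47 on mock arrays 4, 5 and 6, and did not pass (log2 difference 1.08, limma adjusted p = 0.0781). It passed with the replicate block (0.0269) and under 4 of 14 alternatives in all (limma adjusted p 0.0129 to 0.193). PPP1R12B, a targeting subunit of myosin phosphatase, likewise picked, lay on the other side of 0 and did not pass (log2 difference -0.80, limma adjusted p = 0.0532). It passed under 7 of 14 alternatives (limma adjusted p 0.00922 to 0.155). PPP1CB, CDC42BPA and MYLK each had 2 tested probes, of which only the brighter is given.

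Of 12 other myosin chains tested, 3 rose and 0 fell (25%, beside 19.3% of all tested genes), with a median of 0.14. MYO18A, an unconventional myosin, read 8.58, 8.45 and 8.23 on arrays 4, 5 and 6 labelled WTAP and 7.23, 7.55 and 7.41 on mock arrays 4, 5 and 6, and rose by 1.03 (limma adjusted p = 0.00261). MYO1E rose by 0.47 (adjusted p = 0.0492) and MYO6, which walks toward the minus ends of actin filaments, by 0.39 (limma adjusted p = 0.0419). The MYO1E call was lost under 9 of 15 alternatives (limma adjusted p of 0.0361 to 0.143), among them the replicate block (0.0679) and the removal of WTAP array 5 or 6 or of any mock array. The MYO6 call was lost under 7 of 15 (limma adjusted p 0.0186 to 0.118), among them the removal of WTAP array 4 or 5 or of any mock array. The list had 1 gene called, MYO18A, without WTAP array 5 or without any 1 of the mock arrays. The light chains that pair with nonmuscle heavy chains did not pass: MYL6 had a log2 difference of -0.18 (limma adjusted p = 0.297), MYL12A 0.10 (0.607), MYL12B 0.09 (0.595) and MYL6B 0.11 (0.573). MYL5, another light chain, had a log2 difference of 0.31 without overlap of the groups and did not pass (limma adjusted p = 0.0929).

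Among actins and thin filament or crosslinking proteins, 1 rose and 5 fell of 27 tested, with a median of 0.04. The share called was 22.2%, beside 19.3% of all tested genes. ACTN4, alpha-actinin 4, a relative of ACTN1, read 12.44, 12.26 and 12.22 on arrays 4, 5 and 6 labelled WTAP and 11.69, 11.68 and 11.74 on mock arrays 4, 5 and 6. It rose by 0.60 (limma adjusted p = 0.00862). FSCN1, fascin, which bundles actin in filopodia, read 13.62, 13.50 and 13.70 on arrays 4, 5 and 6 labelled WTAP and 14.48, 14.69 and 14.57 on mock arrays 4, 5 and 6, and fell by 0.98 (limma adjusted p = 0.00143). PDLIM4, a PDZ and LIM domain protein of actin fibres, was detected on 0 WTAP arrays and was at least 1.63-fold lower (limma adjusted p = 0.00143). It entered the test only through its detection on the mock arrays, where it was higher. PDLIM7 fell by 0.62 (adjusted p = 0.00682), while its other detected probes had differences of -0.25 and -0.36 (limma adjusted p = 0.272 and 0.125). With the replicate block 1 rose and 9 fell, and without mock array 4 or mock array 5 there were 1 and 2. The cytoplasmic actins ACTB (log2 difference 0.04, limma adjusted p = 0.845) and ACTG1 (0.04, 0.829) did not pass, nor did TPM4 (0.27, 0.136), CNN2 (0.14, 0.382) or CNN3 (0.11, 0.527). TAGLN3, a transgelin paralog, had a log2 difference of -0.58 (limma adjusted p = 0.224).

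In the focal adhesion plaque, which anchors contractile bundles to integrins, 4 rose and 1 fell of 25 tested, with a median of 0.01. The share called was 20%, beside 19.3% of all tested genes. ENAH, a promoter of actin elongation, rose by 1.34 (limma adjusted p = 0.00274), with a second probe at 0.56 (0.145). TLN2, talin 2, rose by 1.28 (limma adjusted p = 0.0018), with detection on 1 mock array. On uncorrected signals these differences were 0.63 for ENAH and 0.56 for TLN2. LPP rose by 0.78 (adjusted p = 0.00967) and TNS3, tensin 3, by 0.68 (limma adjusted p = 0.0333). The TNS3 call was lost when WTAP array 4 or 5 or mock array 5 or 6 was removed, and when dim probes were kept (limma adjusted p 0.00419 to 0.0974, 15 alternatives). ILK, integrin-linked kinase, picked after seeing its values, fell by 0.43 (limma adjusted p = 0.0363). Its call was lost with the replicate block (limma adjusted p = 0.0533) and without any 1 of the 6 arrays (0.00357 to 0.115 over 14 alternatives). ILK had 2 tested probes, of which only the brighter is given. The list had 3 genes called without WTAP array 4, without WTAP array 5 or without mock array 5.

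Actin filament assembly and turnover genes had 2 higher and 1 lower of 34 tested, with a median of 0.04. The share called was 8.82%, beside 19.3% of all tested genes. DIAPH3, a formin, rose by 0.66 (limma adjusted p = 0.0271), with its other detected probes at 0.62 and 0.86. TMSB4X, which sequesters actin monomers, was at least 1.24-fold higher on corrected signals by the probe tested, with detection on 0 mock arrays (limma adjusted p = 0.0332). It entered the test only through its detection on the arrays labelled WTAP. TWF2, a twinfilin, fell by 0.41 (limma adjusted p = 0.0477). Each of these calls was lost under several alternatives, 6 of 15 for DIAPH3 (limma adjusted p 0.00487 to 0.183), 8 of 11 for TMSB4X (0.0183 to 0.0967) and 9 of 15 for TWF2 (0.013 to 0.134). No gene of this list was called without WTAP array 4, WTAP array 5, mock array 5 or mock array 6, and 1 was called without mock array 4.

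Of 18 genes of SRF, its cofactors and immediate targets, 2 rose and 4 fell, with a median of -0.17. The share called was 33.3%, beside 19.3% of all tested genes. SRF itself read 11.76, 11.68 and 12.23 on arrays 4, 5 and 6 labelled WTAP and 11.38, 11.33 and 11.46 on mock arrays 4, 5 and 6, without overlap. SRF, picked after seeing its values, had a log2 difference of 0.50 (95% interval 0.14 to 0.86) and did not pass (limma adjusted p = 0.0605). It passed with the replicate block (limma adjusted p = 0.0434) and under 6 of 14 alternatives in all (0.01 to 0.153). JUNB, an immediate early gene, rose by 0.61 (limma adjusted p = 0.00765). FHL2, picked after seeing its values, rose by 0.44 by the brighter of 2 tested probes (limma adjusted p = 0.0287). Its call was lost without WTAP array 4 or 6 or without any 1 mock array (limma adjusted p 0.00222 to 0.0934 over 14 alternatives). ELK3, an ETS cofactor of SRF, fell by 0.71 (adjusted p = 0.00987), AMOTL2 by 0.70 (adjusted p = 0.0181) and MICAL2, an actin-oxidising enzyme that activates the SRF pathway, by 0.61 (limma adjusted p = 0.0123). The AMOTL2 call was lost without mock array 4 or mock array 6 (limma adjusted p = 0.0507 and 0.0573, lowest 0.0119 of 15 alternatives). The list had 3 genes called without mock array 4. Of the matrix-associated targets, picked after seeing their values, THBS1, thrombospondin 1, fell by 0.50 (limma adjusted p = 0.0167), a call lost without WTAP array 4 or 5 or mock array 4 or 5 (0.000216 to 0.0577 over 14 alternatives). CCN1 and CCN2 had log2 differences of -0.07 and -0.24 and did not pass (limma adjusted p = 0.819 and 0.742). CCN2 passed without WTAP array 6 (limma adjusted p = 0.0222).

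The genes whose pattern over the 6 arrays was most like that of TAGLN and MYH10 were sought by the root mean square difference of log2 values, each gene centred on its own mean. Nearest to TAGLN were AKR1C2, an aldo-keto reductase (0.18), KISS1, the kisspeptin precursor (0.23), and HPGD, which inactivates prostaglandins (0.25). Nearest to MYH10 were TMEM47, a membrane protein of cell junctions (0.16), TCEA3, a transcription elongation factor (0.16), and COL4A1, a basement membrane collagen chain (0.20). These distances describe 6 arrays and include the difference between the groups. HPGD, TCEA3 and COL4A1 were detected on 0 mock arrays and TMEM47 on 1, so their mock values lie near background.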

How the data were processed

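The authors deposited bead intensity values on the linear scale before normalization, each with a detection p-value, per the file headers, and a processed intensity table that is quantile normalized by its values (column medians 196.8). BeadStudio 3.3 is listed in the submitters' processing notes, and no source used here says how background was treated. Of 29285 probes found in both, 27988 had 1 gene symbol, 0 had several and 1297 had none. Through RefSeq (GRCh38.p14), used for names and gene order, 27819 symbols were updated by gene identifier. Another 92 probes lacking processed values were left out of the tests.

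The deposited intensities were corrected and normalized with neqc (limma 3.58.1, R 4.3.3; detection p-values, offset 16, quantile, log2). Probes with detection p under 0.05 on at least 3 arrays were compared, WTAP minus mock, by lmFit and eBayes, probe by probe, with Benjamini-Hochberg adjustment over 15830 probes. The offset understates changes of dim probes. A probe undetected in 1 whole group entered only through detection on every array of the other. This holds for PDLIM4, TMSB4X, the second TAGLN probe and 1 PDLIM7 probe. Where no array of a group detected a probe, the fold is a lower bound on corrected signals. MYL9 is the exception, as its probes were also undetected on an array labelled WTAP. The fold sets the mean of the other group against a floor. On each array the floor is the probe's own value or, if larger, the smallest normalized value of any detected probe. The fit was tested on simulated data. Groups and array numbers came from the sample titles. Equally numbered arrays deviated together (correlations 0.13, 0.18 and 0.22, other combinations -0.19 to 0.03), and the number served as a block in an alternative. Other alternatives changed background correction, offset, scaling, table, filter, variance model, array set, probe choice and neighbouring genes. The text names all probes of the 10 genes, WTAP, up to 4 genes per list with the largest differences among those called without overlap, the actins, light chains, calponins and tropomyosins of the lists, and the 3 genes most like TAGLN and MYH10. The genes, lists and tests were chosen with earlier results of these data known. The counts of 1 of the 6 lists and some of its genes are not reported here.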

Additional observations from a re-analysis of the deposited data

How the results depend on the processing

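Over 14 alternatives refitted across all probes, the count of changed probes was 2446 to 3900, apart from the removal of single arrays, which gave 1706 to 2784 (main count 3020). Of the probes of the 10 genes, 5 to 7 passed without 1 array and 7 to 9 otherwise (main count 8; 9 with the array number as a replicate block, which among the features named in the text gained a CALD1 probe, MYLK and SRF and lost MYO1E, TWF2 and ILK). Of the genes of the 6 wider lists, 15 to 29 passed without 1 array and 48 with a trended and robust variance (main count 30); the cause was not tested, beyond the smaller number of arrays. A trended and robust variance also raised the calls of the thin filament and assembly lists to 13 and 7 (main counts 6 and 3), and median scaling left 1 of 3 myosin chains. The replicate block gave 3257 probes and 34 list genes. Of 265 values of member probes under alternatives 246 lay within 1 SD of the main value, 19 moved further, and no probe that passed changed sign. Of the 22 list genes named by rule 14 passed under all alternatives run. The median difference of all tested probes was -0.03 with median scaling. Dim probes near background (MYH10 on mock arrays, the second TAGLN probe, MYL9) have sizes set by the background correction.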
